A study of Arabidopsis thaliana with 148 samples.

Results

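The beta-amylase genes BAM1 (AT3G23920), BAM2 (AT4G00490), BAM3 (AT4G17090), BAM4 (AT5G55700), BAM5 (AT4G15210) and BAM9 (AT5G18670) of Arabidopsis thaliana were followed by locus as 6 of the 38194 genes counted in a study of how the time of day alters the response to heat. Beta-amylases cut maltose from the ends of starch chains. In leaves, starch is laid down in the chloroplast by day and broken down at night, and maltose is the main sugar that then leaves the chloroplast. BAM3 is the main beta-amylase of night-time starch breakdown in leaves, and BAM1 is a plastid enzyme known for starch breakdown in guard cells and in leaves under stress. BAM2 is a plastid enzyme, BAM4 and BAM9 are plastid proteins without beta-amylase activity of their own that are linked to the control of starch breakdown, and BAM5 is a beta-amylase outside the plastid, known from the phloem.

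The seedlings were of the genotype p35S:HF-RPL18, in heat and control groups alike: they carry a tagged ribosomal protein L18 behind the 35S promoter, so that ribosomes and their mRNA can be pulled down from the cells in which that promoter is active. They were raised at 22 °C on medium with sucrose, with 12 h of light and 12 h of darkness a day for 10 days, were kept in constant light from day 11, and were sampled on day 13. In the time course, separate sets of seedlings were held at 37 °C for 1 h and collected at the end of the heat at ZT48, 51, 54, 57, 60, 63, 66 or 69, where ZT counts hours and ZT48 is subjective dawn; controls stayed at 22 °C and were collected at the same times and at ZT72. In the recovery experiment, seedlings heated for 1 h up to ZT54 were returned to 22 °C and collected 0, 1, 3 and 6 h later, each with controls at 22 °C. In every group 2 kinds of polyadenylated RNA were sequenced: mRNA bound to the tagged ribosomes (TRAP mRNA) and total mRNA. For each kind of RNA the time course held 24 heat and 26 control libraries and the recovery experiment 12 heat and 12 control libraries, 148 libraries in 50 groups of 3, apart from 2 control groups of 2 (total mRNA at ZT57 and TRAP mRNA at ZT60). No label says whether the replicates of a group were grown or pooled separately; the p-values therefore speak of the variation among these libraries alone, and that may be technical.

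Counts summed to 1396305 to 13706459 per library in the time course (median 7158393.5) and to 3080248 to 8745785 in the recovery experiment (median 6081310). Total mRNA libraries of ZT48 to ZT57 had a median of 8873006 counts, and those of ZT60 to ZT72 a median of 4123844. The heat shock gene HSP101, which checks the labels, ranged over 3654 to 6433 CPM (read counts scaled to library size) in heat libraries and 4.49 to 133 CPM in control libraries of total mRNA in the time course. In 7 of the time course controls it was above 20 CPM, the highest being the total mRNA ZT54 control replicate 2. Markers of other cells of the seedling moved with heat as well. Of the 2 phloem markers both were higher after heat in both kinds of RNA, with summed levels of 84.5 to 136 CPM after heat and 57.9 to 92.7 CPM in controls of total mRNA. Of the 3 guard cell markers MYB60 and HT1 were lower and KAT1 was higher, with summed levels of 8.02 to 24.6 CPM after heat and 18.1 to 29.0 CPM in controls of total mRNA. Of the 3 green tissue markers 2 were higher in each kind of RNA: LHCB1.3 and RCA in TRAP mRNA, and RBCS1A and RCA in total mRNA. The summed level in total mRNA was 12672 to 30074 CPM after heat and 10315 to 22891 CPM in controls. Of the 4 root markers 1 was higher and 1 lower in total mRNA (946 to 1688 CPM after heat, 798 to 1591 CPM in controls); NRT2.1 was at 0 in 23 of 24 heat and 13 of 26 control libraries of total mRNA. Of the 2 seed storage markers 1 was higher in total mRNA (2.11 to 89.9 CPM after heat, 0.567 to 37.9 CPM in controls). Both were higher in TRAP mRNA (4.48 to 193 CPM after heat, 2.59 to 68.9 CPM in controls). The part of these cell types in the results below was not tested. In such RNA of seedlings, fewer cells of a type and less RNA per cell cannot be told apart.

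The genes lie on 3 chromosomes of the RefSeq assembly TAIR10.1. The count tables carry no coordinates, and the submitters' processing notes name TAIR10. BAM1 spans chr3:8641181-8644449 on the plus strand in 4 exons and BAM3 spans chr4:9604962-9607402 on the minus strand in 4 exons. BAM2 lies at chr4:222289-225131 (plus strand, 9 exons), BAM5 at chr4:8666334-8669526 (minus strand, 7 exons in its longest transcript), BAM4 at chr5:22551734-22554964 (plus strand, 10 exons in its longest transcript) and BAM9 at chr5:6225956-6228195 (plus strand, 3 exons). BAM1 and BAM5 overlap no other annotated gene. Over 518 bases BAM3 shares its place with AT4G06665, a long noncoding RNA gene on the opposite strand, and over 13 bases with AT4G17085, and BAM2, BAM4 and BAM9 overlap the end of a gene on the opposite strand by 104, 87 and 33 bases. The strand setting of the counting is not given in the sources used here; without it, reads of such pairs cannot be told apart.

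The 300 bases before the annotated start of BAM1, BAM3 and BAM9 are shown because the results on heat and time of day turn on these 3 genes. Capitals mark the heat shock element of 2 units found in the window of BAM1 (GAANNTTC or TTCNNGAA) and the G-box (CACGTG) found in that of BAM9; the BAM3 window, from chr4:9607403-9607702 on the minus strand, held none of the 6 motifs searched on both strands. The BAM1 window is chr3:8640881-8641180 and the BAM9 window chr5:6225656-6225955, both on the plus strand.
BAM1: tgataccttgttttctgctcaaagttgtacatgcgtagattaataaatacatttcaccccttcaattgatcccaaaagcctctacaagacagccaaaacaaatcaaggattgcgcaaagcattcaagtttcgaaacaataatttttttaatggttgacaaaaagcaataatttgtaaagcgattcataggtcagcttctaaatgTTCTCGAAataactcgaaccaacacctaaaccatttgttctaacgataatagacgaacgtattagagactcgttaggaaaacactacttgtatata
BAM3: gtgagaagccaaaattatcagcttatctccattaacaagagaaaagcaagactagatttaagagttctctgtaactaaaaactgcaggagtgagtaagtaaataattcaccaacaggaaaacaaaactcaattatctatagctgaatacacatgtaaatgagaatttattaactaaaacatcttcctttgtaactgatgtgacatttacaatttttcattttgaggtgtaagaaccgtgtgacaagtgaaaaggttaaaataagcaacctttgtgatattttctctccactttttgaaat
BAM9: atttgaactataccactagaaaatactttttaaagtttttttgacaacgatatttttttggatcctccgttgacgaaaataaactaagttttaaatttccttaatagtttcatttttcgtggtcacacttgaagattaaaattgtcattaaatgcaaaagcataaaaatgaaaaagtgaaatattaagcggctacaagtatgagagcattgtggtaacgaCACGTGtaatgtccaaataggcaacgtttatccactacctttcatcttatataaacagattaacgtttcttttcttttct
The heat shock element of 2 units, the paired site bound by heat shock factors, lay 96 to 89 bases before the BAM1 start and in none of the other 5 windows; it occurs in 19.3% of the windows of 27443 genes. Its form with 3 units occurs in 0.485% of windows and in none of the 6. The G-box was present in BAM2, BAM5 and BAM9, against 7.09% of all windows, and the core of the abscisic acid response element (ACGTGNC) in BAM2 and BAM9, against 9.46%; the matches of BAM9 to these overlap each other, as does 1 of the 3 ACGTGNC matches of BAM2 with its G-box. The evening element (AAAATATCT, 2.79% of windows) and the CCA1 binding site (AAAAATCT, 7.94%), both sites of the plant clock, matched in none of the 6. A match is a description of letters and not a bound site.

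Averaged over the day, BAM1 was the most abundant beta-amylase transcript after heat and BAM3 the most abundant in controls. Levels are compared between genes as CPM per kilobase of the longest RefSeq transcript, with libraries scaled by TMM; whether reads cover transcripts evenly is not given in the sources used here. After heat, BAM1 had the highest level in total mRNA, 81.9 ± 29.0 CPM per kb, ahead of BAM3 at 57 ± 25.2 (SD over 24 libraries from 8 times). In controls BAM3 was first with 61.4 ± 38.6 CPM per kb and BAM1 had 11.0 ± 2.85 (SD over 26 libraries from 9 times). BAM1 exceeded BAM3 in 18 of 24 heat libraries of total mRNA and in 20 of 24 of TRAP mRNA, whereas BAM3 was the highest of the 6 in every one of the 26 controls of each kind. The order after heat changed with the time of day, and at ZT63 and ZT66 the mean of BAM3 was the higher. At ZT63 after heat BAM3 had 137 ± 32.1 CPM per kb in TRAP mRNA and 75.9 ± 20.4 in total mRNA, beside 134 ± 39.3 and 68.5 ± 23.4 for BAM1 (SD, n = 3). At ZT66 after heat BAM3 had 142 ± 12.7 CPM per kb in TRAP mRNA and 82.6 ± 3.06 in total mRNA, beside 140 ± 18.8 and 74.1 ± 1.11 for BAM1. Of the summed level of the 6 genes in total mRNA, BAM1 made up 49.8% after heat and 11.1% in controls, and BAM3 34.6% after heat and 62.0% in controls. In TRAP mRNA, BAM1 averaged 171 ± 71.5 CPM per kb after heat and 20.1 ± 6.12 in controls, and BAM3 109 ± 43.1 after heat and 95.8 ± 57.7 in controls. BAM2, BAM4 and BAM9 stood between 3.25% and 11.8% of the sum in each of these groups. BAM9 was above BAM1 in 13 of the 26 control libraries of total mRNA, so the order of these 2 was not fixed.

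**Figure D1:**
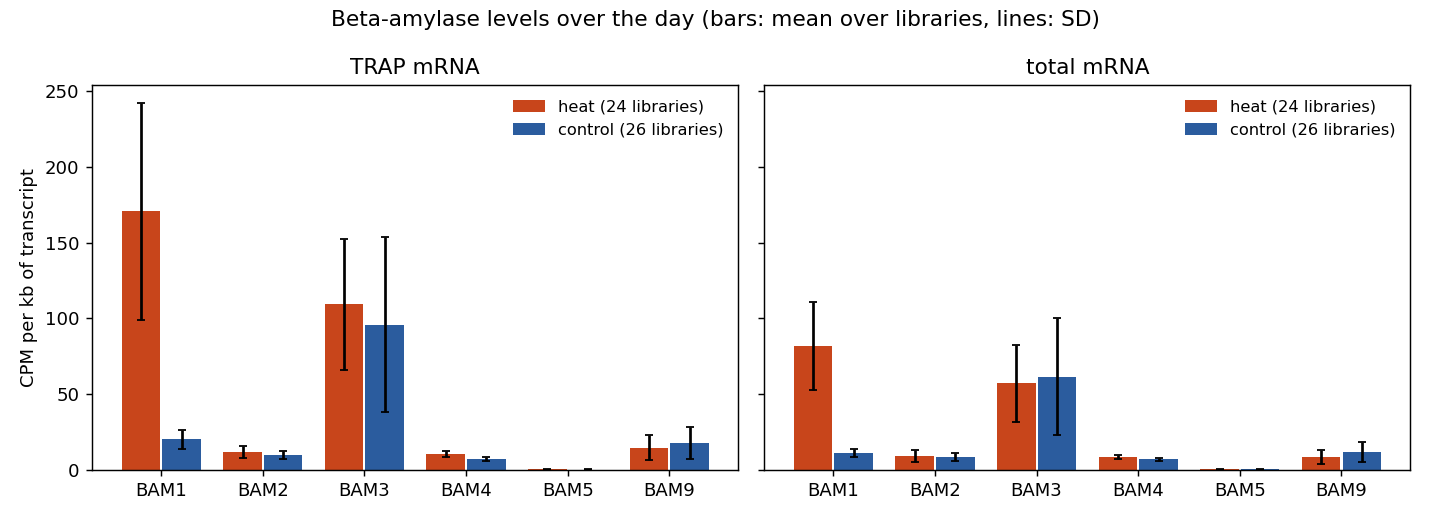
Mean level of each gene over the time course in CPM per kb of transcript (y axis), heat beside control, in TRAP mRNA on the left and total mRNA on the right; lines give the SD over libraries, and controls include ZT72. BAM1 is the tallest bar after heat (171 and 81.9 CPM per kb), and BAM3 the tallest in controls (95.8 and 61.4), while BAM5 is hardly visible.

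BAM5 was close to the limit of detection. Its largest count in any library was 13 in the time course and 7 in the recovery experiment. In total mRNA of the time course it was listed at 0 in 11 of 24 heat libraries and 3 of 26 control libraries, with 32 counts in all after heat and 60 in controls. These counts are not scaled to library size: its mean was 0.300 ± 0.445 CPM after heat and 0.280 ± 0.196 CPM in controls (SD). In TRAP mRNA it was at 0 in 0 of 24 heat and 4 of 26 control libraries, with 72 and 70 counts in all. Its mean there was 0.534 ± 0.457 CPM after heat and 0.232 ± 0.222 CPM in controls. BAM5 did not pass the filter on low counts in any fit with the main settings (minimum count 10), so 5 of the 6 genes were tested. A difference of BAM5 between heat and control was therefore not tested, and its values with a minimum count of 1 are not given here. The counts of 0 allow up to 3 counts per library, and such limits cover counting error only.

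BAM1 rose after heat at every time of day. In total mRNA at ZT48 it had 311, 370 and 328 CPM after heat, against 38.8, 37.9 and 37.8 CPM in controls. At ZT57, its lowest time, it had 121, 116 and 113 CPM after heat, against 15.8 and 17.3 CPM in controls. At ZT69 it had 226, 275 and 246 CPM after heat, against 32.2, 31.6 and 37.1 CPM in controls. Every heat library lay above every control library: the lowest after heat had 113 CPM and the highest control 38.8 CPM. TRAP mRNA showed the same separation, with 231 CPM as the lowest after heat and 84.6 CPM as the highest control. Averaged over the 8 times the difference was 3.10 ± 0.06 (log2 ± SE) in TRAP mRNA, an 8.58-fold rise, and 2.94 ± 0.05 in total mRNA, 7.69-fold (edgeR quasi-likelihood test, Benjamini-Hochberg adjusted p = 1.3e-41 and 1.0e-60). Single times ranged over 2.76 to 3.36 in TRAP mRNA and over 2.68 to 3.19 in total mRNA, each past the threshold. The heat effect was not shown to depend on time (F test of equal effects at 8 times, adjusted p = 0.32 in TRAP and 0.52 in total mRNA).

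**Figure D2:**
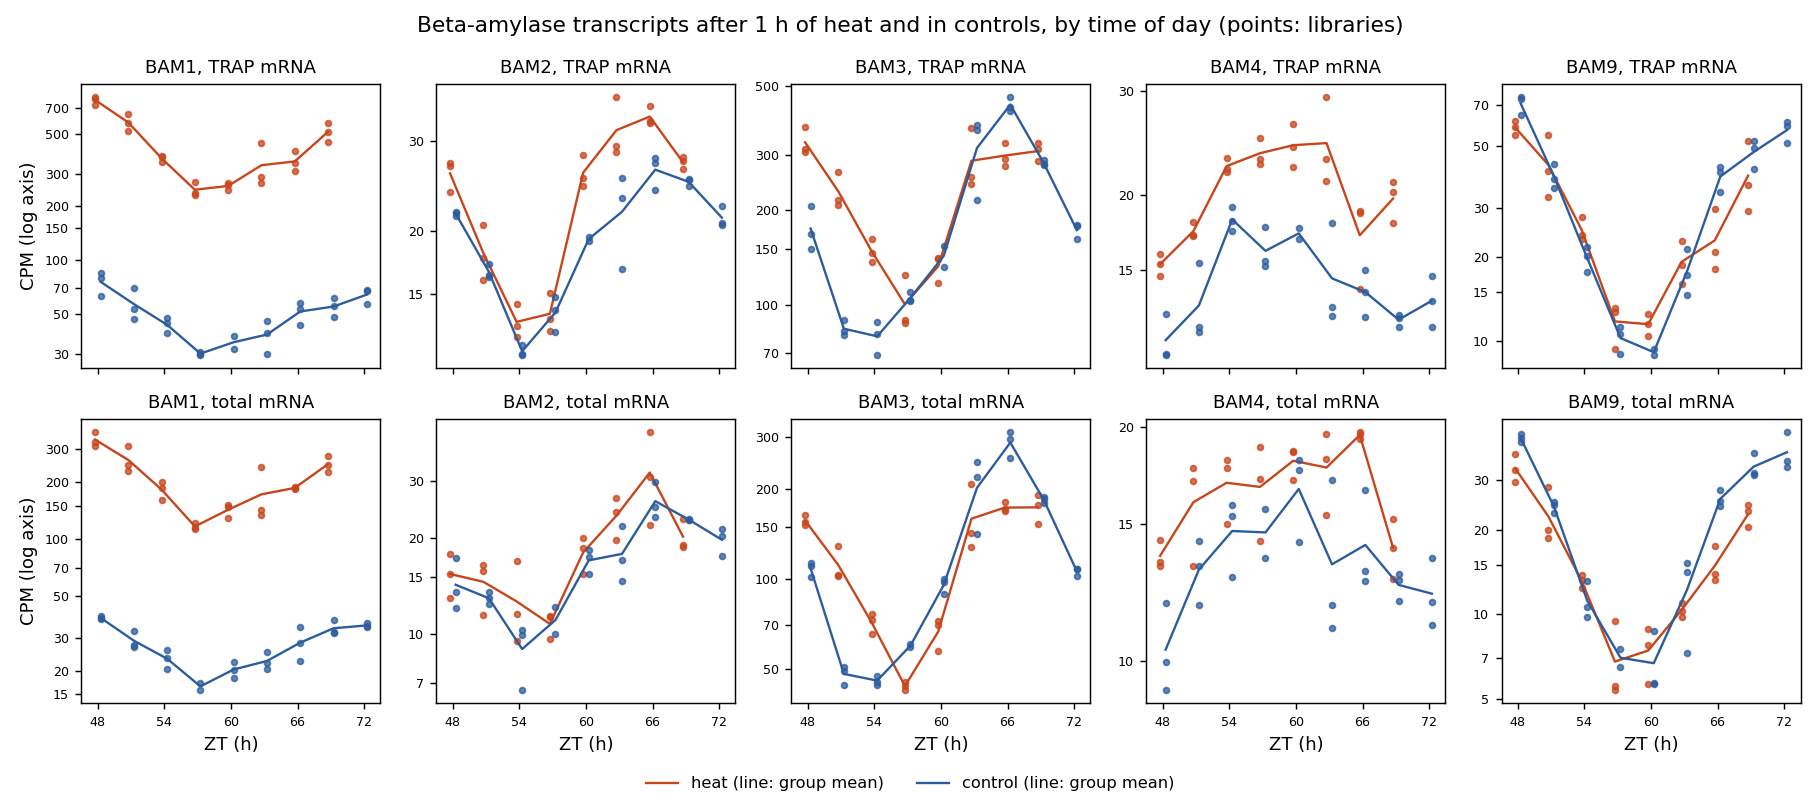
Level of the 5 tested genes in CPM (log axis) against ZT in hours, TRAP mRNA in the upper row and total mRNA in the lower; points are libraries, lines group means, and heat is drawn left of control. BAM1 after heat stays above all its controls at all 8 times, while the BAM3 curves cross after ZT54.

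BAM3 rose after heat at ZT48, ZT51 and ZT54 and fell, or did not pass the test, from ZT57 on. In total mRNA at ZT51 it had 102, 103 and 129 CPM after heat, against 51, 44.2 and 49.4 CPM in controls. At ZT66, the control maximum, it had 181, 169 and 172 CPM after heat, against 295, 254 and 312 CPM in controls. In these 2 comparisons the groups did not overlap, and they differed in opposite directions. At ZT63 they overlapped, with 128, 143 and 208 CPM after heat and 246, 142 and 219 CPM in controls. The log2 differences in total mRNA at the 8 times were 0.55, 1.23, 0.66, -0.44, -0.50, -0.32, -0.72 and -0.06, and the first 7 passed the test (adjusted p between 1.2e-13 and 0.034). Without the replicates numbered 1, the value at ZT63 was -0.01 (adjusted p = 0.98), and this call also ended when only the 2 groups compared were fitted (adjusted p = 0.239). The call at ZT57 ended without the replicates numbered 3 (-0.40, adjusted p = 0.0724). In TRAP mRNA they were 0.91, 1.45, 0.90, -0.07, -0.10, -0.15, -0.55 and 0.10, of which the first 3 and that at ZT66 passed.

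Averaged over these rises and falls, the BAM3 difference was 0.31 ± 0.05 in TRAP mRNA (adjusted p = 4.8e-07) and 0.05 ± 0.05 in total mRNA (adjusted p = 0.30, 95% interval -0.04 to 0.14). The dependence of the heat effect on time passed the F test in both kinds of RNA, with adjusted p = 3.3e-10 in TRAP and 1.3e-15 in total mRNA. Depth differed between the libraries up to ZT57 and the later ones, so the test was also run within each block, a choice made after seeing the data. Within ZT48 to ZT57 the adjusted p was 2.2e-05 in TRAP and 1.6e-08 in total mRNA, and within ZT60 to ZT69 it was 0.52 in TRAP and 0.55 in total mRNA. The antisense gene AT4G06665 had a median of 27.3 CPM after heat and 18.1 CPM in controls of TRAP mRNA, and of 8.37 CPM after heat and 8.39 CPM in controls of total mRNA; its part in the BAM3 counts was not tested.

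**Figure D3:**
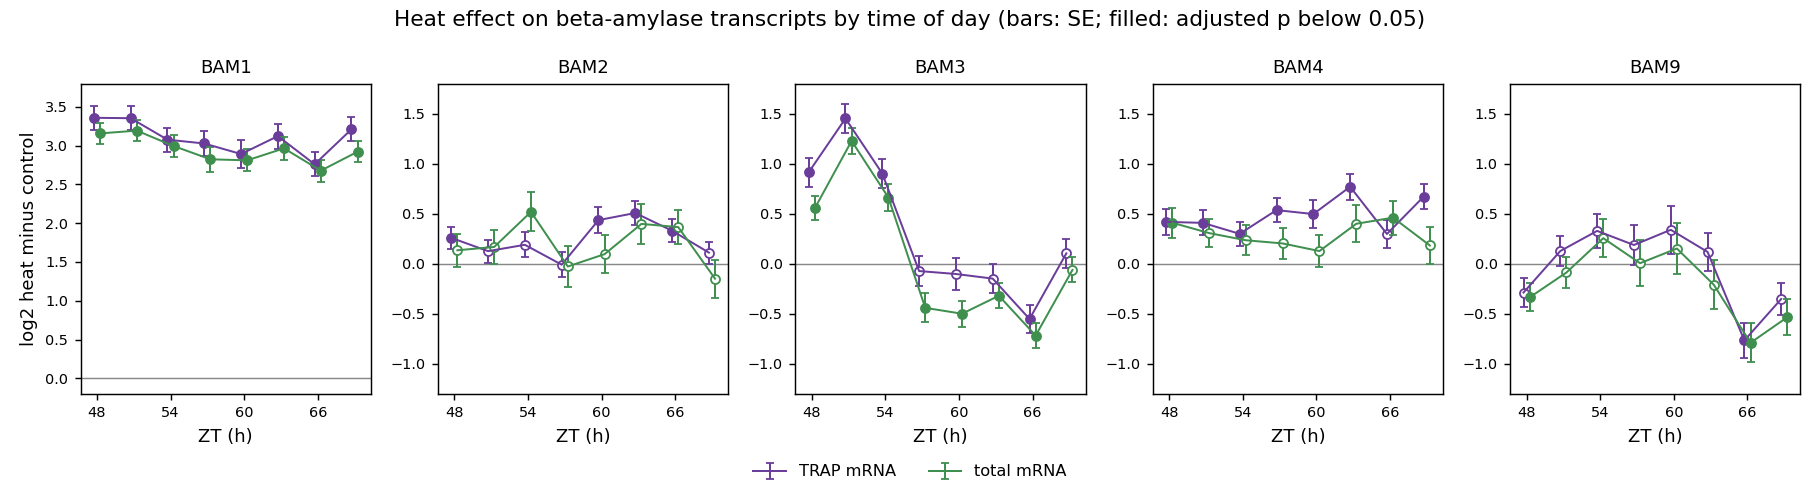
Heat minus control on the log2 scale (y axis, BAM1 on its own range) against ZT in hours for the 5 tested genes, in TRAP and total mRNA; bars are SE and filled points have an adjusted p below 0.05. BAM1 stays between 2.68 and 3.36, BAM3 runs between 1.45 at ZT51 and -0.72 at ZT66, and the other 3 genes lie within 0.79 of 0.

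BAM9 fell late in the subjective night. At ZT66 in total mRNA it had 13.3, 13.9 and 17.5 CPM after heat, against 25.2, 27.6 and 24.3 CPM in controls. At ZT69 it had 20.4, 23.2 and 24.4 CPM after heat, against 37.3, 31.7 and 31.3 CPM in controls. The groups did not overlap at either time, nor at ZT48, where the 3 heat libraries had 29.6 to 37.0 CPM and the controls 40.9 to 43.6 CPM. The differences in total mRNA were -0.79 ± 0.19 at ZT66, -0.53 ± 0.18 at ZT69 and -0.34 ± 0.14 at ZT48 (adjusted p = 0.00054, 0.012 and 0.036), and in TRAP mRNA the fall at ZT66 passed (-0.77 ± 0.18, adjusted p = 0.00029). Without the replicates numbered 1 the calls at ZT48 and ZT69 in total mRNA ended (adjusted p = 0.19 and 0.18), and without those numbered 2 that at ZT66 in TRAP mRNA did (0.059). At the other 5 times differences ranged over -0.21 to 0.26 in total mRNA, and none passed. The mean over the day was -0.04 ± 0.06 in TRAP mRNA (adjusted p = 0.58) and -0.19 ± 0.07 in total mRNA (adjusted p = 0.011), the value in total mRNA being -0.09 without the replicates numbered 1 (adjusted p = 0.37). Dependence of the heat effect on time passed in TRAP mRNA (adjusted p = 0.011, but 0.65 without the replicates numbered 2 and 0.055 without those numbered 1) and not in total mRNA (adjusted p = 0.096). Within ZT48 to ZT57 of TRAP mRNA the adjusted p was 0.19 and within ZT60 to ZT69 it was 0.23.

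BAM4 and BAM2 rose a little relative to the scaled libraries. BAM4 at ZT63 in TRAP mRNA had 21.1, 29.3 and 23.0 CPM after heat, against 18, 12.5 and 13.0 CPM in controls. Its mean over the day was 0.49 ± 0.05 in TRAP mRNA, 1.40-fold, and 0.29 ± 0.06 in total mRNA, 1.22-fold (adjusted p = 1.1e-14 and 6.1e-06); 7 of the 8 times passed in TRAP mRNA, and ZT48 and ZT66 in total mRNA. Both calls of BAM4 in total mRNA ended without the replicates numbered 2 (adjusted p = 0.076 and 0.10) and under DESeq2 (0.077 and 0.062). That at ZT48 also ended under RLE scaling (0.059), without the replicates numbered 1 (0.097) and without the controls with a trace of HSP101 (0.065). The BAM4 call at ZT66 also ended without the replicates numbered 3 (0.21) and in a fit of the 2 groups only (0.052). In TRAP mRNA its call at ZT54 ended under DESeq2, RLE scaling, a minimum count of 1 and without the replicates of any 1 number or the controls with a trace of HSP101 (adjusted p between 0.0506 and 0.199), that at ZT48 without the replicates numbered 3 (0.073), and those at ZT51 and ZT60 without those numbered 2 (0.107 and 0.108). BAM2 at ZT63 in TRAP mRNA had 36.7, 28.5 and 29.3 CPM after heat, against 25.4, 16.8 and 23.1 CPM in controls. For BAM2 the mean was 0.24 ± 0.04 in TRAP mRNA (adjusted p = 4.8e-07) and 0.19 ± 0.07 in total mRNA (adjusted p = 0.0073), with 4 times past the threshold in TRAP mRNA and ZT54 alone in total mRNA, where the call ended without the replicates numbered 2 (adjusted p = 0.27) and under DESeq2 (0.0584). The BAM2 call at ZT48 in TRAP mRNA ended under DESeq2, RLE scaling, a minimum count of 1, a fit of the 2 groups only, and without the replicates of any 1 number or the controls with a trace of HSP101 (adjusted p between 0.0596 and 0.167). Its call at ZT60 ended without the replicates numbered 2 (0.113), and that at ZT66 without those numbered 1 (0.091) or 2 (0.0686). The call on the BAM2 mean in total mRNA ended without the replicates numbered 2 (0.08, adjusted p = 0.35) and under RLE scaling (0.13, adjusted p = 0.056). Under DESeq2 the BAM2 mean in total mRNA did not pass either (0.13, adjusted p = 0.075). Neither gene's heat effect was shown to depend on time (adjusted p between 0.275 and 0.956).

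Read against all genes, a heat effect was common and a dependence on time was not. In the mean over the day 4 of the 5 tested members passed in TRAP mRNA, all higher, where 83.6% of all genes tested passed (38.1% higher and 45.5% lower). In total mRNA 4 of 5 passed, 3 higher and BAM9 lower, where 80.7% of all genes passed (36.9% higher and 43.9% lower). A heat effect that depended on time was called for BAM3 and BAM9 in TRAP mRNA, against 7.04% of all genes, and for BAM3 in total mRNA, against 3.61%. In TRAP mRNA, the members called at ZT48, 51, 54, 57, 60, 63, 66 and 69 numbered 4, 3, 3, 2, 3, 3, 4 and 2 of 5. All genes called at these times in TRAP mRNA made up 60.2%, 59.6%, 58.7%, 56.6%, 50.4%, 56.3%, 51.3% and 55.3%. In total mRNA 4, 2, 3, 2, 2, 2, 4 and 2 members of 5 were called. The shares of all genes in total mRNA were 57.8%, 56.5%, 51.5%, 50.3%, 47.6%, 44.1%, 44% and 42.8%; a call at a single time was thus common among all genes. When the replicates of 1 number were left out, the 24 single-time calls in TRAP mRNA numbered 19 to 22 and the 21 in total mRNA 18 to 20.

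The control levels of all 5 tested genes cycled over the day in constant light. BAM3 had its highest control group in total mRNA at ZT66, 287 ± 29.9 CPM, and its lowest at ZT54, 45.7 ± 1.64 CPM, a ratio of 6.27 (SD, n = 3 each). BAM9 had 42.2 ± 1.37 CPM at ZT48 and 6.71 ± 1.75 CPM at ZT60, a ratio of 6.29, while BAM4 varied by a ratio of 1.61 over the 9 times. Ordered by level, neighbouring control times of BAM3 overlapped in their libraries in 3 of 8 pairs of total mRNA, and those of BAM4 in 8 of 8. A cosine of 24 h fitted to controls of total mRNA put the crest of BAM3 at hour 18 and of BAM2 at hour 18.6 after subjective dawn, of BAM1 and BAM9 at hour 22.5 and of BAM4 at hour 11.1. The amplitudes, the rise of the crest over the daily mean, were 1.33 for BAM3, 1.33 for BAM9, 0.64 for BAM2, 0.50 for BAM1 and 0.22 for BAM4 on the log2 scale. All 5 waves passed the F test (adjusted p between 6.1e-22 and 0.0026), against 51.3% of all genes in controls of total mRNA, and all 5 in controls of TRAP mRNA, against 61.8%.

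The wave fitted to BAM3 after heat had a lower amplitude and a later crest than that of controls. The fitted crest stood at hour 20.7 in TRAP mRNA after heat, against 17.9 in controls, and the amplitude was 0.81 after heat, against 1.22 in controls. In total mRNA the crest was at hour 20.3 after heat, against 18 in controls, with an amplitude of 0.95 after heat and 1.33 in controls. The difference between the 2 waves passed the F test for BAM3 (adjusted p = 3.3e-08 in TRAP and 4.0e-08 in total mRNA) and for BAM9 (0.015 in TRAP and 0.023 in total mRNA). For BAM9 the amplitude in total mRNA was 1.07 after heat and 1.33 in controls, and the crest stood at hour 23.5 after heat and 22.5 in controls. These 2 of 5 genes compare with 10.1% of all genes in TRAP mRNA and 5.48% in total mRNA. The BAM9 call was lost in total mRNA when the replicates of any 1 number were left out (adjusted p between 0.11 and 0.15) and in TRAP mRNA without those numbered 1 or 2 (0.064 and 0.32). For BAM1 the crest in total mRNA stood at hour 23.2 after heat and 22.5 in controls, and the difference between waves did not pass (adjusted p = 0.24 in TRAP and 0.29 in total mRNA). Waves after heat were called in all 5 genes in both kinds of RNA, against 56.7% of all genes in TRAP and 48.2% in total mRNA; that of BAM4 in total mRNA (adjusted p = 0.027) was lost without the replicates numbered 1 (0.34) or 2 (0.11).

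Over the 9 control groups of total mRNA the group means of log2 CPM of BAM1 and BAM9 had a Pearson r of 0.97, and those of BAM2 and BAM3 an r of 0.89; in TRAP mRNA these were 0.98 and 0.89. BAM4 ran opposite to BAM1 (r = -0.83) and to BAM9 (r = -0.85) in total mRNA. The points share libraries and are few, and the values describe these groups only. Controls 24 h apart, ZT72 against ZT48, differed in 1 of 10 tests: BAM2 in total mRNA had 21.3, 17.6 and 20.3 CPM at ZT72, against 17.2, 12.0 and 13.5 CPM at ZT48 (0.47 ± 0.17, adjusted p = 0.047), where 12.7% of all genes were called, and in TRAP mRNA, where 9.83% of all genes were called, no member was by edgeR or DESeq2, with 1 unadjusted p below 0.05. Leaving out the replicates of any 1 number ended that call (adjusted p between 0.097 and 0.21).

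In recovery the BAM1 rise was over within 1 h. Right after heat, BAM1 had 334, 367 and 310 CPM in TRAP mRNA, against 44.1, 51.5 and 43.9 CPM in controls. After 1 h at 22 °C it had 34.7, 36.5 and 36.8 CPM, against 49.7, 46.2 and 52.4 CPM in controls. The groups did not overlap at either time, and the order had turned round: the difference was 2.88 ± 0.16 at 0 h and -0.43 ± 0.16 at 1 h (adjusted p = 4.9e-14 and 0.047). The 1 h call was lost without the replicates of any 1 number (adjusted p between 0.067 and 0.29). In total mRNA BAM1 had 171, 181 and 174 CPM at 0 h, against 23.7, 22.3 and 25.3 CPM in controls, and 24.8, 19.4 and 21.2 CPM at 1 h, against 24.7, 24.9 and 27.1 CPM in controls. The differences were 2.88 ± 0.13 at 0 h (adjusted p = 1.5e-20) and -0.22 ± 0.14 at 1 h (adjusted p = 0.27). At 3 and 6 h BAM1 differences were 0.45 and 0.40 in TRAP mRNA and 0.10 and 0.16 in total mRNA, none past the threshold. The 6 h value in TRAP mRNA was 0.61 and did pass once libraries that stood apart were left out, as given below.

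BAM9 also turned round. In TRAP mRNA it had 35.8, 30.3 and 30.2 CPM at 0 h, against 22.3, 24.0 and 20.9 CPM in controls, and 11.2, 13.5 and 10.5 CPM at 1 h, against 19.1, 24.3 and 21.6 CPM in controls. The groups did not overlap at either hour. Differences were 0.55 ± 0.16 at 0 h and -0.87 ± 0.17 at 1 h in TRAP mRNA (adjusted p = 0.0063 and 0.00037), and 0.58 ± 0.18 and -0.60 ± 0.21 in total mRNA (adjusted p = 0.0087 and 0.038). The 1 h fall in total mRNA was lost without the replicates of any 1 number (adjusted p between 0.135 and 0.141) and under DESeq2 (0.062). The rise at 0 h was lost without the replicates numbered 3 (0.081 in total mRNA and 0.064 in TRAP mRNA) or, in TRAP mRNA, 1 (0.052). The seedlings collected at ZT54 of the time course had the same heat at the same hour, and there BAM9 differed by 0.33 ± 0.17 in TRAP and 0.26 ± 0.19 in total mRNA, neither past the threshold; the difference between the 2 experiments was not tested.

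BAM3 was higher at 0 h and BAM2 lower at 1 h. BAM3 in TRAP mRNA had 138, 147 and 154 CPM at 0 h, against 75.4, 97.9 and 80.1 CPM in controls (0.82 ± 0.18, adjusted p = 0.00057), and in total mRNA it differed by 0.61 ± 0.15 (adjusted p = 0.00085). BAM2 in TRAP mRNA had 8.87, 9.94 and 9.09 CPM at 1 h, against 18.3, 14.7 and 16.8 CPM in controls (-0.82 ± 0.16, adjusted p = 0.00033), while in total mRNA it differed by -0.24 ± 0.19 (adjusted p = 0.41). Neither pair of TRAP groups overlapped. BAM4 in total mRNA had 21.7, 23.5 and 20.3 CPM at 0 h, against 18.5, 14.7 and 15.8 CPM in controls (0.41 ± 0.17, adjusted p = 0.044). That call was lost without the replicates of any 1 number (adjusted p between 0.0715 and 0.279), under DESeq2 (0.053) and with a minimum count of 1 (0.058). At 6 h BAM3 in total mRNA had 114, 98.7 and 117 CPM, against 83.8, 61.4 and 88.9 CPM in controls (0.49 ± 0.14, adjusted p = 0.032), and this call too was lost without the replicates of any 1 number (adjusted p between 0.0748 and 0.238).

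The 6 h controls held libraries that stood apart. Replicate 2 of the 6 h controls, in total and TRAP mRNA, and replicate 1 of the 3 h controls in TRAP mRNA correlated least with the rest of their group among recovery controls. Replicate 2 of the 6 h TRAP controls, at r = 0.96162, was nearly level with replicate 3 of the 6 h total mRNA controls, at 0.96166, which was kept. Without the 3 libraries that correlated least, a choice made after seeing the data, BAM3 at 6 h in total mRNA differed by 0.34 (adjusted p = 0.13). BAM1 at 6 h in TRAP mRNA then differed by 0.61 (adjusted p = 6.3e-05) and BAM2 at 6 h in TRAP mRNA by 0.40 (adjusted p = 0.038). BAM4 in TRAP mRNA then passed at 0 h (0.28, adjusted p = 0.0454) and for dependence on recovery time (adjusted p = 0.0413). BAM4 at 3 h in TRAP mRNA had 21.4, 26.4 and 24.0 CPM after heat, against 47.3, 25.7 and 21 CPM in controls, the first of them in the library that stood apart.

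**Figure D4:**
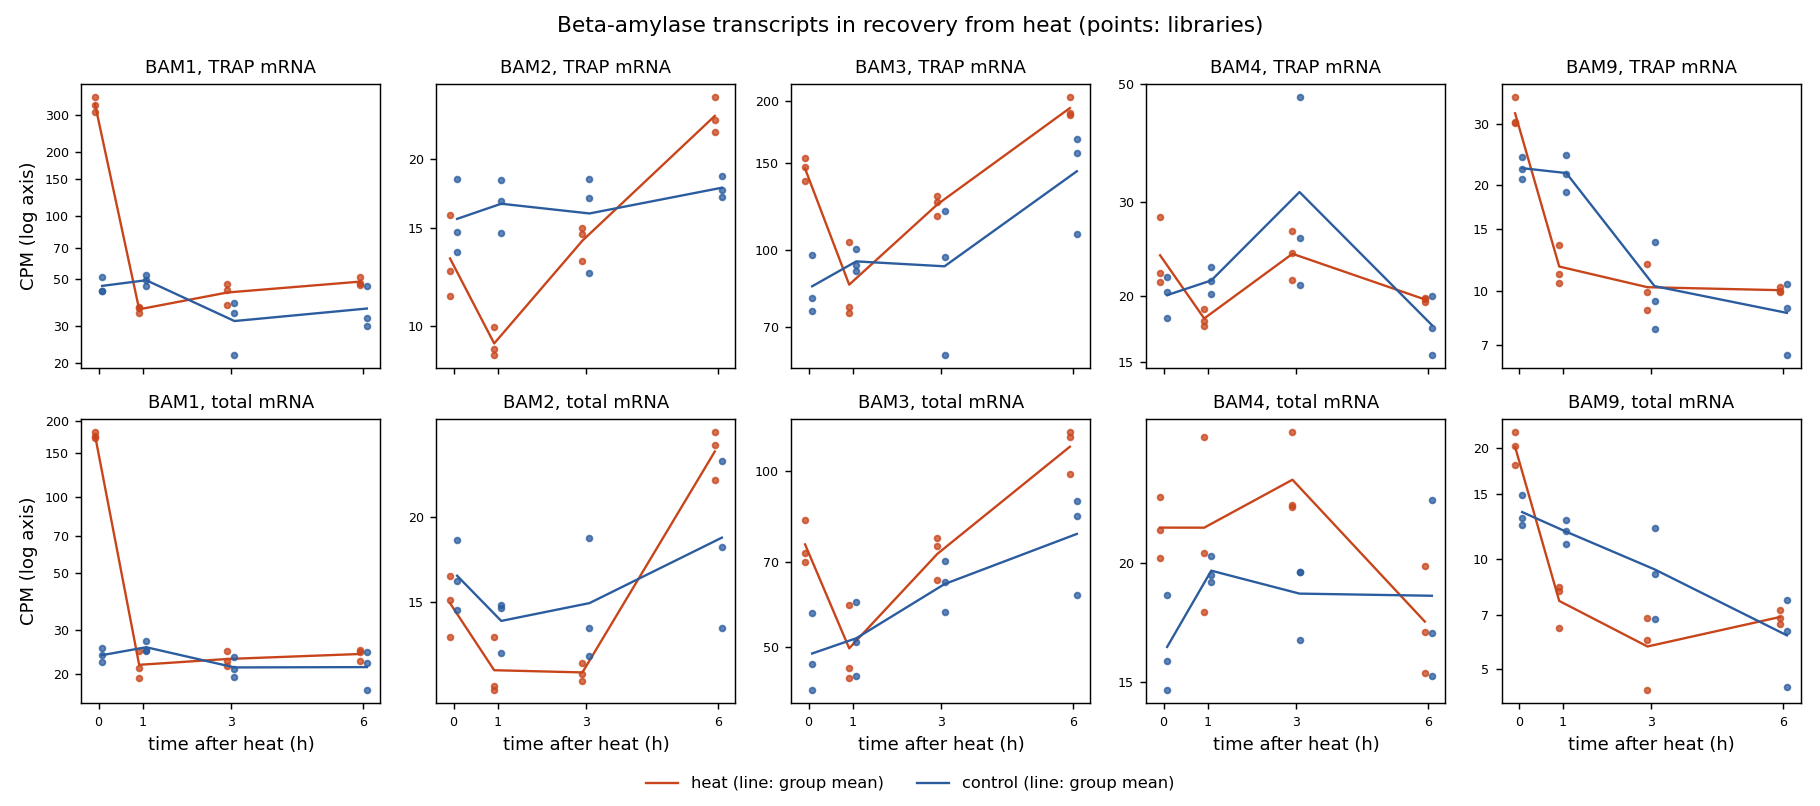
Level of the 5 tested genes in CPM (log axis) against hours after the end of heat, TRAP mRNA in the upper row and total mRNA in the lower; points are libraries, lines group means, and heat is drawn left of control. BAM1 drops to its control range or under it within 1 h, and BAM9 is above its controls at 0 h and under them at 1 h.

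At 0 h 3 of 5 members passed in TRAP mRNA, against 49.9% of all genes, and 4 of 5 in total mRNA, against 46.1%. At 1 h 3 of 5 passed in TRAP mRNA, all lower, against 24.6% of all genes in either direction and 12.6% lower, and BAM9 alone in total mRNA, against 19.4% in either direction and 9.64% lower. At 3 h none passed, against 6.46% in TRAP and 1.12% in total mRNA; by DESeq2 none passed either, and 3 members in TRAP and 2 in total mRNA had an unadjusted p below 0.05. At 6 h none passed in TRAP mRNA by edgeR or DESeq2, where 5.39% of all genes did by edgeR and 3 members had an unadjusted p below 0.05, and 1 passed in total mRNA, where 6.32% did. A heat effect that changed over the 4 recovery times was called for BAM1, BAM2, BAM3 and BAM9 in TRAP mRNA (adjusted p = 2.8e-11, 0.00042, 0.024 and 0.00016), against 51% of all genes, and for the same 4 in total mRNA (9.3e-17, 0.046, 0.033 and 0.00069), against 41.9%. For BAM2 in total mRNA this rested on the libraries and the method used. Without the 3 libraries that stood apart the adjusted p was 0.20, and without the replicates numbered 2 or 3 it was 0.33 and 0.40. With all libraries it was 0.0898 under DESeq2 and 0.0542 under RLE scaling. The BAM3 call ended without the replicates numbered 2 in both kinds of RNA (0.11 in TRAP, 0.14 in total mRNA), without those numbered 1 in total mRNA (0.20) and without those numbered 3 in TRAP mRNA (0.056).

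Compared with total mRNA, TRAP mRNA held more of most beta-amylase transcripts. At ZT48 after heat, BAM1 had 789, 812 and 731 CPM in TRAP mRNA, against 311, 370 and 328 CPM in total mRNA. In ZT48 controls it had 84.6, 63.2 and 78.9 CPM in TRAP mRNA, against 38.8, 37.9 and 37.8 CPM in total mRNA. Over the 8 times TRAP exceeded total mRNA after heat by 1.03 ± 0.05 for BAM1, 0.97 ± 0.05 for BAM3, 0.79 ± 0.08 for BAM9, 0.36 ± 0.06 for BAM2 and 0.30 ± 0.05 for BAM4 (log2, joint edgeR model of both kinds, adjusted p between 2.9e-32 and 3.6e-07). All 5 passed, where 72.8% of all genes did, 38.3% with TRAP higher. In controls 4 passed, where 76.2% of all genes did, 38.5% with TRAP higher: BAM1 by 0.85 ± 0.06, BAM3 by 0.69 ± 0.05, BAM9 by 0.61 ± 0.06 and BAM2 by 0.29 ± 0.05. BAM4, at 0.08 ± 0.05 in controls, did not pass (adjusted p = 0.11). CPM is relative to each library's own mRNA, so these are shares within each kind of RNA and not amounts.

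The heat effect itself was larger in TRAP than in total mRNA for BAM3, by 0.28 ± 0.07, and BAM4, by 0.22 ± 0.07 (adjusted p = 0.0011 and 0.012), 2 of 5 members where 35.6% of all genes were called. For BAM1 the difference was 0.18 ± 0.08 and did not pass (adjusted p = 0.061), nor did BAM9 (0.18 ± 0.10) or BAM2 (0.08 ± 0.08). The BAM4 call was lost without the replicates of any 1 number (adjusted p between 0.065 and 0.10). The joint model does not match TRAP and total libraries of the same number, so these p-values leave out any pairing between them. In recovery no member's heat effect differed between the kinds of RNA at 0, 1, 3 or 6 h by edgeR, where 1.99%, 0.014%, 0% and 0% of all genes were called, or by DESeq2; unadjusted p-values below 0.05 numbered 0, 1, 2 and 0 of 5.

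Of the other beta-amylase genes, BAM6 (AT2G32290) fell after heat, with a median of 2.83 CPM after heat and 8.91 CPM in controls of TRAP mRNA. Its mean difference was -1.59 ± 0.09 in TRAP and -1.85 ± 0.14 in total mRNA (adjusted p = 4.1e-25 and 2.7e-21). BAM7 (AT2G45880) and BAM8 (AT5G45300) code for nuclear proteins in which a beta-amylase-like part is joined to a DNA-binding part. BAM7 rose by 0.29 ± 0.06 in TRAP and 0.42 ± 0.08 in total mRNA, and BAM8 fell by 0.83 in TRAP and 0.43 in total mRNA on the log2 scale (SE 0.07 and 0.08; adjusted p at most 1.6e-05 for these 4 values).

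The genes whose group means over the 17 groups of total mRNA were most like those of each member are given with their Pearson r in total and then TRAP mRNA, among 17531 genes. BAM1 was closest to PCME (AT5G15860, a prenylcysteine methylesterase; 0.99 and 0.99), AT1G52870 (0.99 and 0.995) and cpHsc70-1 (AT4G24280, a chloroplast heat shock protein; 0.99 and 0.99). BAM3 was closest to AT1G50450 (0.94 and 0.85), mtLPD1 (AT1G48030, a mitochondrial lipoamide dehydrogenase; 0.94 and 0.90) and its own antisense gene AT4G06665 (0.94 and 0.98). AT4G06665 shares 518 bases with BAM3, and without the strand setting of the counting their reads cannot be told apart. Closest to BAM9 were ARGAH2 (AT4G08870, an arginase; 0.97 and 0.96), AT4G25290 (0.97 and 0.97) and GPX7 (AT4G31870, 0.96 and 0.95). BAM2 was closest to PDF2.1 (AT2G02120, 0.95 and 0.84), NdhL (AT1G70760, 0.94 and 0.91) and AT1G32470 (0.94 and 0.93), and BAM4 to AT4G12590 (0.95 and 0.92), AT5G20000 (0.94 and 0.84) and AT3G53990 (0.92 and 0.95). All points share the same libraries, and the values are a description.

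A list of 14 other genes of starch breakdown was set beside the members. It was chosen with earlier results of these data known, so its counts beside those of all genes are a description and not a test. After heat 12 were higher and 2 lower in TRAP mRNA, where 38.1% of all genes were called higher and 45.5% lower, with a median of 0.29 beside -0.09 for all genes, and 8 were higher and 2 lower in total mRNA, where 36.9% were called higher and 43.9% lower, with a median of 0.13 beside -0.08. In TRAP mRNA PWD, a starch-phosphorylating dikinase, rose by 1.07 ± 0.05, LDA, a debranching enzyme, by 0.84 ± 0.05, LSF1, a phosphatase-like protein, by 0.84 ± 0.06, and the starch phosphatase SEX4 by 0.81 ± 0.04. In total mRNA PHS2, the cytosolic glucan phosphorylase, fell by 0.83 on the log2 scale (SE 0.05), while SEX4 rose by 0.54 ± 0.05, PWD by 0.47 ± 0.06 and LDA by 0.38 ± 0.06. These were named as the called genes with the largest mean difference (adjusted p at most 2.4e-07). At 1 h of recovery 8 of the 14 passed in TRAP mRNA, each lower, where 12.6% of all genes were called lower (median -0.55 beside 0.01 for all genes), and 4 in total mRNA, each lower, where 9.64% were (median -0.31 beside -0.01). TRAP exceeded total mRNA past the threshold for all 14 both after heat, where 38.3% of all genes were called higher (median 0.73 beside 0.02), and in controls, where 38.5% were (median 0.34 beside 0.01). Dependence of the heat effect on time was called for PHS2 and ISA3 in TRAP mRNA, where 7.04% of all genes were called, and for PHS2 in total mRNA, where 3.61% were.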

How the data were processed

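Total and TRAP mRNA of seedlings were sequenced in 148 libraries. The authors deposited whole-number counts per gene, not normalized, in 1 table for the time course and 1 for the recovery experiment; per the submitters' processing notes, cutadapt, FastQC, HISAT2 2.2.0 and the TAIR10 genome were used. Not given in the sources used here are the counting tool and its annotation. Per the labels' protocols, polyadenylated RNA was amplified by PCR. Of the 38194 gene IDs, 37751 matched RefSeq's TAIR10.1 table, which gave gene models, transcript lengths and upstream windows.

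Libraries were grouped by their labels. Genes with too few counts were removed (filterByExpr, minimum count 10, minimum total 15), libraries were scaled by TMM, and edgeR 4.0.16 in R 4.3.3 fitted a robust quasi-likelihood model with 1 mean per group to each kind of RNA in each experiment, and to both kinds jointly for TRAP against total mRNA. Contrasts, F tests and 24 h cosine waves were tested over all genes with Benjamini-Hochberg adjustment, with 0.05 as the threshold; intervals are at 95%. All tests are two-sided. The tests were also run on simulated counts in which a small part of the genes carried planted changes, balanced up and down. Those counts lack the broad response to heat seen here, so they do not check the scaling. The planted heat effects were also larger than those called for BAM2, BAM4 and BAM9.

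Alternatives were DESeq2 1.42.0, RLE scaling, a minimum count of 1, the replicate number as a block, each replicate number left out, the control in doubt at ZT54 left out, controls up to ZT69 only, and fits of only the groups compared. Left-out controls with HSP101 above 20 CPM, left-out recovery libraries that stood apart and fits within blocks of times were chosen after seeing the data. The members and lists were chosen with earlier results of these data known. The genes named are the 6 members, 3 relatives, the 3 genes most like each member, and up to 4 called genes of the starch list with the largest mean heat effect.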

Additional observations from a re-analysis of the deposited data

Results flagged for a closer look

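For some members the heat effect differed between times, recovery hours or kinds of RNA by a test of that difference itself (edgeR quasi-likelihood F test, Benjamini-Hochberg adjusted p). The heat effect on BAM3 differed between the 8 times of day in TRAP mRNA (adjusted p = 3.3e-10) and in total mRNA (1.3e-15), with log2 differences between 1.45 and -0.55 in TRAP and between 1.23 and -0.72 in total mRNA. That on BAM9 differed between times in TRAP mRNA (0.011), with the lowest value, -0.77, at ZT66. The daily waves after heat and in controls differed for BAM3 (3.3e-08 in TRAP, 4.0e-08 in total mRNA) and BAM9 (0.015 in TRAP, 0.023 in total mRNA). These BAM9 calls, by time and by wave, ended when the replicates of single numbers were left out, as given above.

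Over the hours of recovery the heat effect in TRAP mRNA differed for BAM1 (2.8e-11), BAM2 (0.00042), BAM3 (0.024) and BAM9 (0.00016). In total mRNA it differed for the same 4 genes, with adjusted p = 9.3e-17 for BAM1, 0.046 for BAM2, 0.033 for BAM3 and 0.00069 for BAM9. Between TRAP and total mRNA of the time course the mean heat effect differed for BAM3 (0.0011) and BAM4 (0.012). The recovery calls of BAM2 in total mRNA and of BAM3 in both kinds of RNA ended when replicates of single numbers were left out. So did this call of BAM4. No group of these data held enough samples for a test of single outlying libraries.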

How the results depend on the processing

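Of 198 alternative counts of members, 174 stayed within 1.5 times the reported count. Of 2125 values of single members and comparisons, 2013 kept their side of the threshold, 97 were no longer past it and 15 newly passed it. Among values with a direction that were called in either fit, 0 changed direction. Changes of sign between values that both missed the threshold were not counted. A heat effect that depends on time was called within ZT60 to ZT69 for 0 members in TRAP mRNA (2 over all times) and 0 in total mRNA (1 over all times), and within ZT48 to ZT57 for 1 in TRAP mRNA; these fits used fewer samples. For controls 24 h apart the count was 0, against 1, with DESeq2, with a minimum count of 1, with the replicate block and without controls with a trace of HSP101; the cause was not tested.

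Leaving out the replicates of each number in turn, which leaves fewer samples, gave 1 to 2 members with a different wave in TRAP mRNA and 1 to 1 in total mRNA (2 each with all), 1 to 2 with a heat effect that depends on time in TRAP mRNA (2), 4 to 5 calls in recovery in TRAP mRNA and 2 to 3 in total mRNA (6 each), 3 to 4 and 2 to 3 members with an effect that depends on recovery time (4 each), 1 to 1 whose heat effect differs between TRAP and total mRNA (2), and 0 to 0 for controls 24 h apart (1).

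Replicate numbers are shared between groups, but same-numbered heat and control libraries deviated together (correlation over 0.1) in 1 of 23 pairs of TRAP and 3 of 23 of total mRNA in the time course and in 0 of 12 of each in recovery; the 3 pairs of total mRNA are those of ZT51. Same-numbered TRAP and total libraries of one treatment and time did so in 18 of 49 pairs of the time course and 13 of 24 of recovery. For TRAP and total libraries the median correlation was 0.075 in the time course (-0.04 to 0.50) and 0.10 in recovery (0.003 to 0.62). For heat and control libraries the medians lay between -0.02 and 0.015. The joint model of TRAP and total mRNA treats its libraries as independent, so its p-values leave out any pairing by number. A model that matches these pairs was not fitted. Whether both kinds of RNA came from the same seedlings is not stated in the labels. With the number as a block, which does not match TRAP and total libraries of one group to each other, the count of members whose heat effect differs between TRAP and total mRNA was 2, the count for controls 24 h apart was 0, and no other count of members moved by over 1.5 times. RLE scaling shifted the median of all genes by -0.09 to 0.07 on the log2 scale. It made 30.9% of the called differences in heat effect between TRAP and total mRNA at 0 h of recovery higher, against 17.8% under TMM, and at 1 h 50% of 2, against 33.3% of 3. BAM5, with at most 13 counts in a library, was not tested with the main settings.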
